A study of Mus musculus with 3 samples.

Results

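GFI1B-only intervals are stretches of the mouse genome that the authors listed as marked by GFI1B:DAM and that lie more than 5000 bp, edge to edge, from any interval they listed for GFI1:DAM. They were chosen from the measured lists themselves, by splitting the interval column of both lists and keeping each interval once. The GFI1B list held 7595 distinct intervals and 4385 of them were GFI1B-only, which is 57.7% of the list. A further 2804 overlapped a GFI1 interval and 406 lay beside one without overlap, at 5000 bp or less. The rule applied the other way round left 3995 of 7166 GFI1 intervals, or 55.7%, so lone intervals made up a similar share of either list.

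GFI1 and GFI1B are related zinc-finger repressors that recruit the histone demethylase LSD1, and in haemogenic endothelium, the endothelial cells that give rise to blood, they silence the endothelial programme. In DamID a bacterial adenine methyltransferase, DAM, is fused to the protein of interest and methylates the adenine of nearby GATC sites, so that methylated fragments report where the protein has been. DAM alone gives the background of accessible DNA.

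The series had 3 samples: GFI1:DAM, GFI1B:DAM and unfused DAM as control. Each came from its own line of AinV18 mouse embryonic stem cells, a line built to take up a transgene, so a mark reports an introduced fusion protein and not the endogenous one; how strongly the fusions were expressed is not stated in the labels. Embryoid bodies of day 3.25 gave FLK1+ cells, which went into culture, and on day 2 the fraction defined by TIE-2 and c-KIT, labelled as haemogenic endothelium, was isolated by flow cytometry. The description of each sample names biological replicates 1 and 2 together, the lists do not separate them, and no value below carries an error between replicates or a test. RNA levels were not analysed here, so the labelled cell type was not checked against marker expression. For the GFI1B list the control's reads were taken off before the step named SS, per its header. The header of the GFI1 list breaks off after naming BayesPeak, so whether the same threshold and subtraction were used is unknown, and a difference in binding and a difference in calling cannot be told apart. An interval missing from the GFI1 list does not show that GFI1 was absent there.

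Sequences bear on 2 groups of genes described below. No mm9 genome was used here, so the intervals' own bases are not shown, and whether an interval covers a promoter was not determined. The first group is the promoters of 4 genes of endothelium and blood progenitors whose single GFI1B interval was GFI1B-only. They are RefSeq windows on GRCm38.p6, from 250 bases before to 50 after the start of the gene, and capitals mark AATC or GATT, the core of the GFI1 family motif on either strand, and GATC, the site that DAM methylates. These motifs cannot overlap each other.
Hhex, chr19:37434591-37434890, plus strand: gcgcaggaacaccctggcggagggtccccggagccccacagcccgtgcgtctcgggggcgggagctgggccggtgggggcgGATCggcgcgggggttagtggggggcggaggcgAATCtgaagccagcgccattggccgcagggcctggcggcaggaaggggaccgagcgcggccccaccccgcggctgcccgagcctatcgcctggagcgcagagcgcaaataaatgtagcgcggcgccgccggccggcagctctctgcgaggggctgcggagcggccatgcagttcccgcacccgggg
Procr, chr2:155750967-155751266, plus strand: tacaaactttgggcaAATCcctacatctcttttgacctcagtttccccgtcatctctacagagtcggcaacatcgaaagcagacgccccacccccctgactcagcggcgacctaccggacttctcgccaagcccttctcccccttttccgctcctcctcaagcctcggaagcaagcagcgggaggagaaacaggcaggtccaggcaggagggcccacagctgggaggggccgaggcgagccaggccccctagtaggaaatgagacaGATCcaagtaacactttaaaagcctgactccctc
Tie1, chr4:118489800-118490099, minus strand: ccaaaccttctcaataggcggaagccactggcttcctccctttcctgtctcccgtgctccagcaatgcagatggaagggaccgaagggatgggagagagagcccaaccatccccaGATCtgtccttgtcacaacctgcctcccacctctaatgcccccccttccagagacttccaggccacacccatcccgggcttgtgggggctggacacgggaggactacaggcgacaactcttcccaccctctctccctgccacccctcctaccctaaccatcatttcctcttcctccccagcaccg
Clec14a, chr12:58269209-58269508, minus strand: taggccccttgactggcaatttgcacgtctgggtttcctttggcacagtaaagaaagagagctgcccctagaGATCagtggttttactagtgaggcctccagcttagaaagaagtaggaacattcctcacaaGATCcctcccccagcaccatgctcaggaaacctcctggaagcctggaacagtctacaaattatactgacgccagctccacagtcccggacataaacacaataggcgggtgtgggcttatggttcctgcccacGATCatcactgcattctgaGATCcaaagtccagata
The Hhex and Procr windows each held 1 AATC core and 1 GATC. The Tie1 window held 1 GATC and the Clec14a window 4, both without an AATC core. Over all 32851 promoters of this RefSeq set, 73.1% held AATC on either strand and 48.0% held GATC. Among 2195 promoters of genes with GFI1B-only intervals and no others, the shares were 66.5% and 44.8%. Among 1368 promoters of GFI1B-listed genes without any GFI1B-only interval they were 65.8% and 44.2%, so both groups of listed genes gave nearly the same shares.

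The other group is the microRNAs. Of 43 microRNA gene rows with a GFI1B-only interval 10 carried a standard microRNA symbol, and 9 of these were matched to RefSeq. All 10 were absent from the GFI1 list, which is 10 of the 18 rows with such a symbol (55.6%), against 43.3% of all rows with GFI1B-only intervals alone and no GFI1 entry. Over all 74 microRNA rows of the GFI1B list the same share was 45.9% (34 rows), near that of all rows. The 3′ arms of the miR-29 pair are shown because they share a seed (bases 2 to 8, in capitals), and the other main arms because each has a seed of its own.
mmu-miR-29a-3p: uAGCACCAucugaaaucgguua
mmu-miR-29b-3p: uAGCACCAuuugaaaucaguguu
mmu-let-7a-5p: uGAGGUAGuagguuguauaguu
mmu-miR-221-3p: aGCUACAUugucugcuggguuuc
mmu-miR-31-5p: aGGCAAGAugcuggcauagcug
mmu-miR-335-5p: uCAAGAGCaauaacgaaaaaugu
mmu-miR-802-5p: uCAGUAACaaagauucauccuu
mmu-miR-296-5p: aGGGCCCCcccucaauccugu
mmu-miR-718: cUUCCGCCcggccgggugucg

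The distance that defined these intervals covered a wide range. Their median distance to the nearest GFI1 interval was 60444 bp, with quartiles of 23330 and 150734 bp. The 3 members nearest to the limit, at 5002, 5033 and 5041 bp, were listed under Nars2, Pag1 and Hibadh, and the 3 intervals just short of it, at 4900, 4870 and 4866 bp, under Stag2, Nfia and Mcc. No gap in the distances lay at the limit, as the histogram shows. At the far end an interval under a U6 small RNA gene on chromosome 14 stood 3973750 bp from the next GFI1 interval. Intervals of Sorcs1 (2413132 bp), Kdm4c, a histone demethylase gene (2199230 bp), Nr2f2, the gene of the venous regulator COUP-TFII (1957998 bp), and Gm17684 (1954450 bp) followed.

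**Figure D1:**
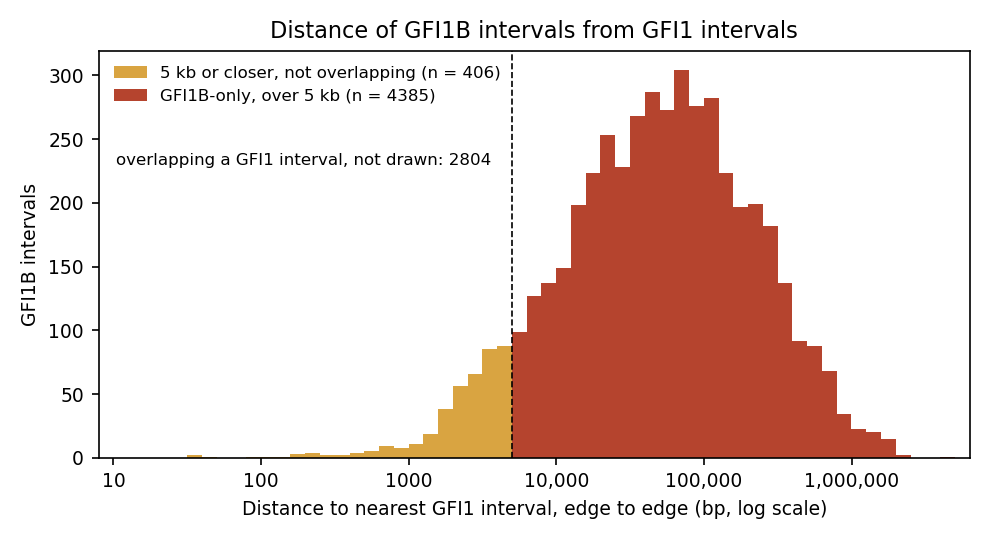
Number of GFI1B intervals (vertical axis) by distance to the nearest GFI1 interval (bp, log scale); the dashed line is the 5000 bp limit, and 2804 overlapping intervals are not drawn. The 4385 GFI1B-only intervals form a single broad peak that runs on smoothly from the 406 closer ones.

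GFI1B-only intervals were narrower than the GFI1B intervals that overlapped GFI1. Their median width was 1251 bp (quartiles 901 and 1701 bp) against 1551 bp (1101 and 2151 bp) for the overlapping ones. Because the rule measures from interval edges, a wider interval more easily reaches a GFI1 interval, so width entered the choice of members. How much of the difference comes from the rule was not tested. Intervals of 3000 bp or more numbered 149 of 4385 among the GFI1B-only ones (3.40%) and 321 of 3210 among the other GFI1B intervals. Width fell little with distance, from a median of 1301 bp at 5 to 20 kb to 1251 bp at 20 to 100 kb, 1201 bp at 100 kb to 1 Mb and 1126 bp beyond 1 Mb, where 60 intervals lay. GFI1-only intervals were also narrower, at 1101 bp, than GFI1 intervals as a whole, at 1201 bp. The widest member, 6901 bp on chromosome 7 (97125448 to 97132348, mm9), was listed under Eed, a Polycomb repressor gene. Next came intervals of Fam198b (5951 bp), the protocadherin gene Pcdh7 (5201 bp), Blm, a DNA helicase gene (5151 bp), and Cdc73, a gene of the PAF1 elongation complex (5101 bp).

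**Figure D2:**
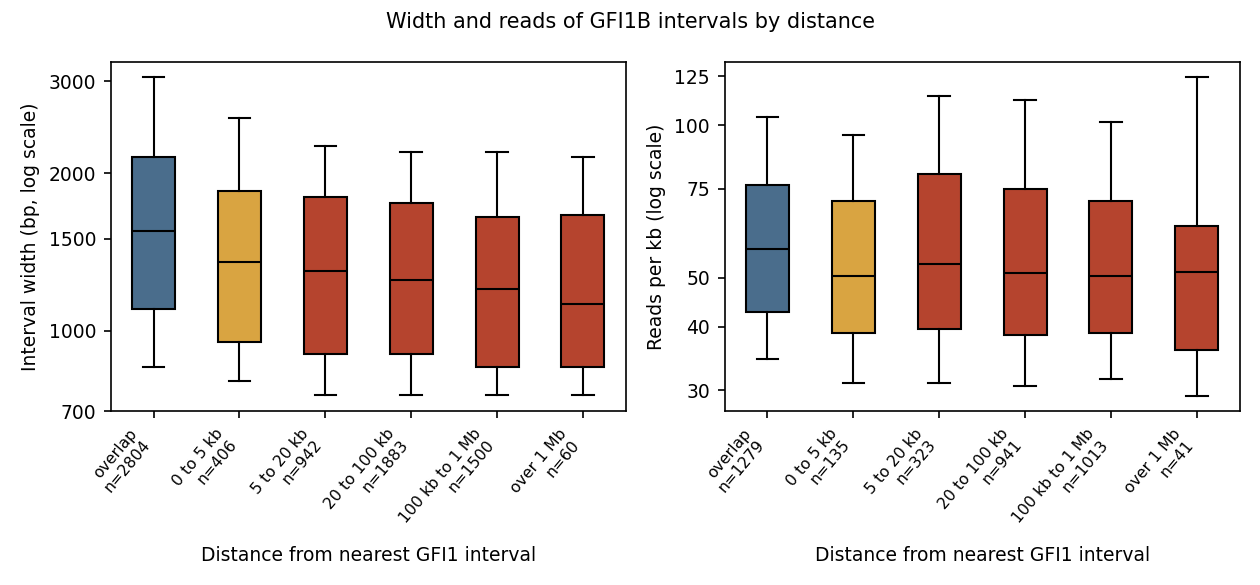
Interval width (bp, left) and reads per kb of intervals with a read number of their own (right), both on log scales, for GFI1B intervals grouped by distance from the nearest GFI1 interval. Lines are medians, boxes quartiles and whiskers the 10th and 90th percentiles; median width goes from 1551 bp for overlapping intervals to 1126 bp beyond 1 Mb.

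The deposited read number belongs to a gene and sums over its intervals, so an interval has its own value where its gene has no other. Reads per kb divide that number by the summed interval length and are not scaled to library size, so they rank genes inside the GFI1B list only. Of 3832 genes with a single GFI1B interval 2391 (62.4%) had a GFI1B-only one. Their median was 51.2 reads per kb (quartiles 38.9 and 74.2) against 56.8 (42.9 and 76.4) for the 1308 genes whose single interval overlapped GFI1. The order turned round at the top. A value of 200 reads per kb or more was reached by 61 of the 2391 (2.55%) and by 11 of the 1308 (0.841%). Of the 50 strongest single-interval genes 44 (88.0%) were GFI1B-only, and of the 100 strongest 82 (82.0%). They also exceeded their overall 62.4% at the other end, with 37 of the 50 weakest and 70 of the 100 weakest. Genes that share an interval count separately here.

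**Figure D3:**
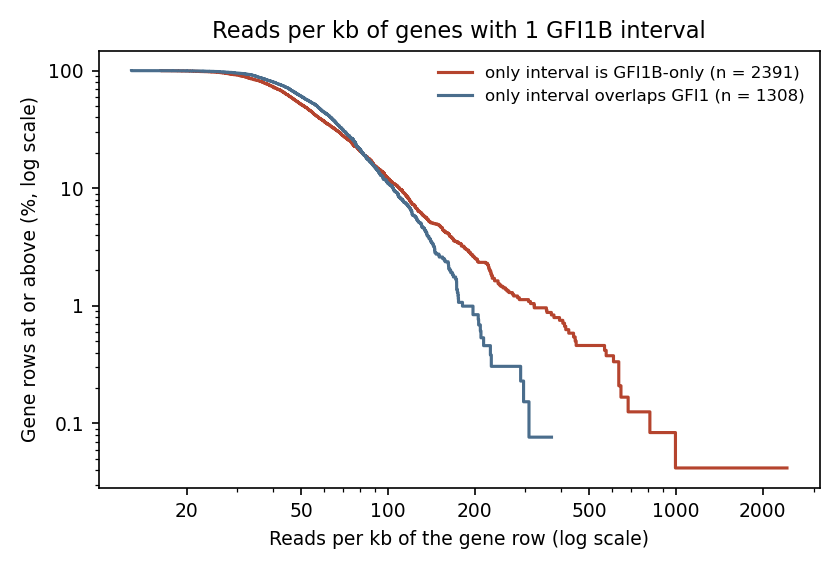
Share of single-interval genes at or above each value of reads per kb (both axes log scale), for GFI1B-only intervals (n = 2391) and intervals overlapping GFI1 (n = 1308). The curves cross below 100 reads per kb and the GFI1B-only curve reaches 2426, the other 369.

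The strongest GFI1B-only interval held 1943 reads in 801 bp on chromosome 11 (96597423 to 96598223) under the large intergenic RNA gene 2010300F17Rik, 53.6 kb from a GFI1 interval. The same interval is listed under Skap1. The next, 1401 bp on chromosome 8 (25548075 to 25549475), held 1394 reads and was listed under 1810011O10Rik and 1 more gene. Apol7a, an apolipoprotein L gene, followed at 811 reads per kb (893 reads), and Osbpl7, an oxysterol-binding protein gene, at 682 (512 reads). Eps15, an endocytosis gene, stood at 644 reads per kb and was the one gene of the 10 strongest with a GFI1 interval as well, 89.0 kb away. An interval on chromosome 1 (173432334 to 173434034, 1076 reads, 633 reads per kb) was shared by Alyref2, an mRNA export gene, B930036N10Rik and a U5 small RNA gene. Tial1, an RNA-binding protein gene, at 606 and Setbp1 at 572 completed the 10.

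By genes, 3614 of the 5327 rows of the GFI1B list (67.8%) had at least 1 GFI1B-only interval. For 2820 (52.9%) all intervals were GFI1B-only, and 2309 of these (43.3% of all rows) were also absent from the GFI1 list. The other 511 had a GFI1 interval elsewhere, at a median of 25494 bp from the nearest GFI1B interval of the same gene. In 794 rows GFI1B-only intervals stood beside others near GFI1. GFI1B-only intervals therefore came in several settings. Some genes had them alone, either without a GFI1 entry or with GFI1 intervals elsewhere. Others held them beside intervals near GFI1. Of the 2309 genes 2018 (87.4%) had a single interval and 9 had 4 or more. A gene with more intervals counts here only if all of them are GFI1B-only, while it more easily has at least 1. Both shares therefore depend on the number of intervals per gene. The shares of lists, biotypes and families below were not adjusted for it. An interval was listed under 2 or more genes for 225 members (5.13%), near the 5.02% of all GFI1B intervals. The largest such group was the Ugt1a cluster of UDP-glucuronosyltransferases on chromosome 1, where 1 interval (90046784 to 90050984, 195 reads) was listed under 9 genes.

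Genes with many GFI1B-only intervals and no entry in the GFI1 list were chosen for mention after their values were seen. Inpp5d, which encodes the blood-cell inositol phosphatase SHIP1, had 5, all on chromosome 1 between 89523884 and 89624134, at 69.7 reads per kb. Sgce, the epsilon-sarcoglycan gene, had 5 as well (68.4 reads per kb), and their widths ran from 751 to 3701 bp. Ednrb, an endothelin receptor gene (39.5 reads per kb), Mtss1 (62.2), Atf6, a transcription factor gene of the unfolded protein response (59.7), Mcph1, Pip4k2a, Zfr and a U6 gene had 4 each. The 4 Mtss1 intervals lay from 1603020 to 1680920 bp away from GFI1. Runs were formed from members that each lay within 100 kb of the next. The largest, on chromosome 10 around Utrn, held 10 members but also 4 GFI1 intervals. The largest without a GFI1 interval held 8, from Gigyf2 over Ngef and Neu2 to Inpp5d. In all, 2365 members (53.9%) were in runs of 2 or more and 285 (6.50%) in runs of 5 or more. Of the 49 such runs 11 held no GFI1 interval. Run shares were not computed for all GFI1B intervals, so whether members cluster more than those was not tested.

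Of all gene rows, those of Arfip1 and Gm20388, both also in the GFI1 list, held most GFI1B-only intervals, 11 of 18 and 11 of 19. Fgfr2, an FGF receptor gene, had 9 of 16, though 12 of its intervals were listed under another gene as well. So were 10 of those of Arfip1 and 8 of those of Gm20388. Intervals listed under these genes were widely spread. They ran from 137433698 to 140311398 on chromosome 7 for Fgfr2 and from 84331076 to 85692476 on chromosome 3 for Arfip1. For Gm20388 they ran from 122435775 to 126675725 on chromosome 8. Whether each lies inside the gene it was listed under was not determined. Utrn, the utrophin gene, had 8 of 11, and Pcdh7 and Frmd4a 7 of 10 and 7 of 12. Ppm1l, a protein phosphatase gene, had 7 of 7 and Rbfox2, a splicing factor gene, 6 of 6. Although Ppm1l was in the GFI1 list with 3 intervals and Rbfox2 with 2, none came closer than 12883 and 21570 bp to a GFI1B interval.

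Endothelial identity genes carried GFI1B-only intervals either alone, without a GFI1 entry, or beside intervals near GFI1. Of 39 genes in this list 29 were in the GFI1B list and 19 (65.5%) had a GFI1B-only interval, near the 67.8% of all rows. For 8 (27.6%, against 43.3% of all rows) these were the sole intervals and GFI1 had none. Procr, the protein C receptor gene, led them with 136 reads (109 reads per kb, chromosome 2, 155569022 to 155570272), 141 kb from GFI1. Sox17, a SOXF transcription factor gene, followed with 153 reads (92.7 reads per kb), 262 kb from GFI1. Icam2, an adhesion gene, had 96 reads (71.1 reads per kb, chromosome 11, 106243623 to 106244973), and Plvap, which encodes the diaphragm protein of endothelial pores, 45 (52.9 reads per kb, chromosome 8, 74028725 to 74029575). Plvap and the remaining 4 were below the median of all rows, 53.6 reads per kb. Tie1, the gene of the partner receptor of TIE-2, had 30 reads (42.8 reads per kb, chromosome 4, 118139264 to 118139964) and the junction gene Esam 101 over a wider stretch (40.4 reads per kb). Cdh5, the VE-cadherin gene, had 51 reads (39.2 reads per kb, chromosome 8, 106626025 to 106627325), with the next GFI1 interval 498 kb away, and the lectin gene Clec14a 35 (38.9 reads per kb, chromosome 12, 59370498 to 59371398), with the next one 722 kb away.

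The 11 other endothelial genes were named in both lists and held GFI1B-only intervals beside others. Kdr, the gene of the VEGF receptor FLK1, had 3 GFI1B intervals, and the one at 76383732 to 76384682 on chromosome 5 lay 14350 bp from GFI1. In Ptprb, the gene of the phosphatase VE-PTP, 1 of 2 was GFI1B-only (chromosome 10, 115715971 to 115718821), and in Erg, an ETS factor gene, 1 of 3 (chromosome 16, 95681467 to 95682467). Ets1, another ETS factor gene, had 4 of 6, which followed each other on chromosome 9 between 32498498 and 32568848, while the 2 before them overlapped GFI1. Its neighbour Fli1 had 2 of 6.

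**Figure D4:**
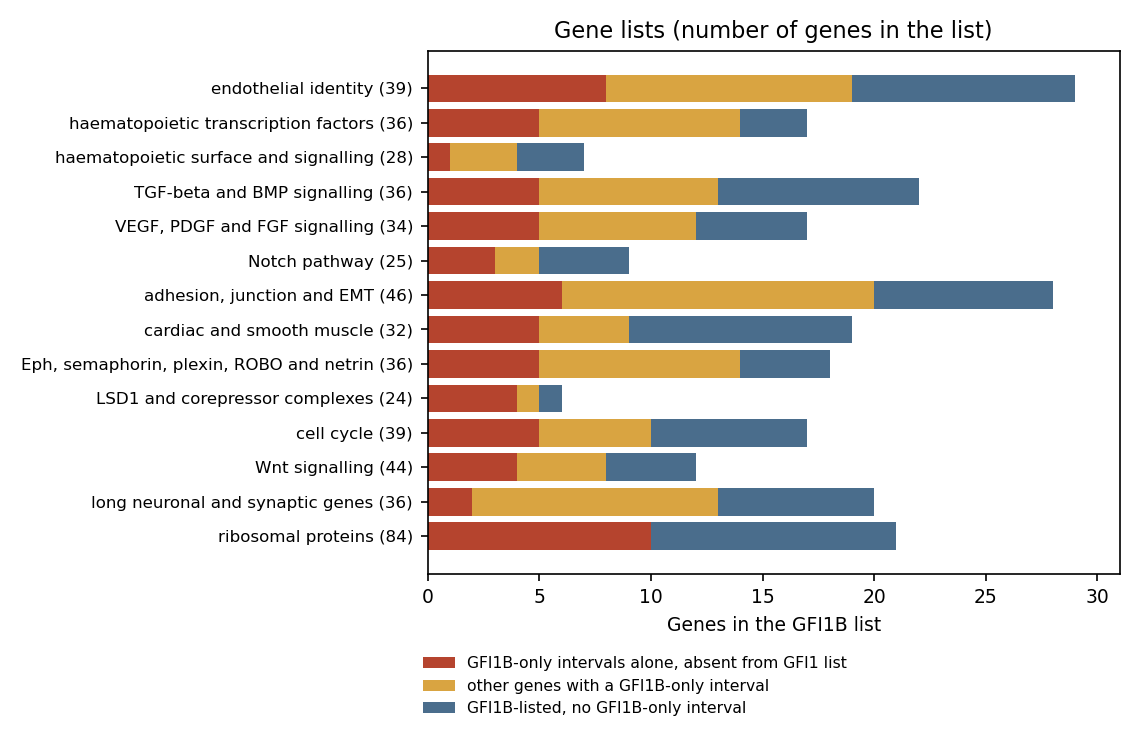
Genes of each list (rows, with the number of genes in the list) that were in the GFI1B list, split into genes with GFI1B-only intervals alone and no GFI1 entry, other genes with a GFI1B-only interval, and genes without one. Endothelial genes count 8, 11 and 10, and ribosomal protein genes 10, 0 and 11.

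Transcription factors of blood formation had GFI1B-only intervals in 14 of 17 GFI1B-listed genes (82.4%, against 67.8% of all rows), of 36 in the list. For 5 (29.4%, against 43.3% of all rows) they were the sole marks: Hhex, which encodes a homeobox protein of early endothelium and blood, the lymphoid factors Gata3, Ikzf1 and Ebf1, and Sox6, which acts in red cell maturation. Hhex was the strongest, with 262 reads in 1151 bp (228 reads per kb, chromosome 19, 37510384 to 37511534), and its next GFI1 interval was the nearest of the 5, at 7718 bp. Sox6 had 3 intervals (105 reads per kb in all) and Ebf1 3 (48.7), with distances of 210148 to 615948 bp and 261510 to 451010 bp. Gata3 had 2 (69.7 reads per kb), with 76 and 67 reads, the latter in an interval listed under another gene as well. Ikzf1 had 1 (48.9). Of the factors in both lists, Runx1, required for blood to emerge, had 1 of 3 GFI1B-only (chromosome 16, 92646467 to 92648067), between 2 intervals that overlapped GFI1, and the homeobox gene Meis1 had 2 of 4. Among surface and signalling genes of blood cells 4 of 7 GFI1B-listed genes (57.1%) had such intervals. Vav1, a guanine exchange factor gene, was the one absent from the GFI1 list (14.3%, against 43.3% of all rows). It had 117 reads (137 reads per kb) and no GFI1 interval within 1046494 bp.

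Signalling lists lay on either side of the 67.8% of all rows. The share with GFI1B-only intervals alone and no GFI1 entry was below the 43.3% of all rows in each. Of the rows behind that 43.3%, 87.4% had a single interval, and the list shares were not adjusted for intervals per gene. The share was 22.7% for TGF-beta and BMP and 29.4% for VEGF, PDGF and FGF. Notch and Wnt each gave 33.3% and guidance genes 27.8%. For TGF-beta and BMP 13 of 22 listed genes (59.1%) had a GFI1B-only interval. The ligand genes Bmp2 (2 intervals, 48.2 reads per kb) and Tgfb1 (27.6), the receptor gene Acvr1b (2 intervals, 53.9), the shared mediator Smad4 (3 intervals, 45.7) and the target gene Id1 (2 intervals, 33.6) had GFI1B-only intervals alone and no GFI1 entry. Their values were near or below the 53.6 of all rows. For VEGF, PDGF and FGF 12 of 17 genes (70.6%) had one, and Epha2, an Eph receptor gene (69 reads, 98.4 reads per kb), the ligand gene Pdgfb (57.7), its family's receptor gene Pdgfra (62.1), the receptor gene Fgfr1 (52.2) and the feedback inhibitor gene Spry2 (33.7) were absent from the GFI1 list. Vegfc, the lymphatic growth factor gene, had 4 GFI1B-only intervals, 62804 to 118554 bp from GFI1, and 2 GFI1 intervals elsewhere. In the Notch pathway 5 of 9 genes (55.6%) had one, and Numb, an inhibitor gene (275 reads, 115 reads per kb), the receptor gene Notch3 (71 reads, 88.6) and the target gene Hey2 (151 reads, 46.5) had no GFI1 entry. In the Wnt pathway the counts were 8 of 12 (66.7%), and Wnt7b, Fzd8, Tcf7l2 and Wls had no GFI1 entry. Guidance genes (Eph, semaphorin, plexin, ROBO and netrin) gave 14 of 18 (77.8%), among them Robo1 with 6 of 7 intervals GFI1B-only.

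Genes of LSD1 and corepressor complexes were few. Of 24 in the list 6 were listed for GFI1B and 5 had a GFI1B-only interval (83.3%, against 67.8% of all rows), 4 of them without a GFI1 entry (66.7%, against 43.3%). Sin3a, a scaffold of histone deacetylase complexes (128 reads, 88.2 reads per kb), shared its interval with another gene. The deacetylase gene Hdac2 had 169 reads over 2001 bp (84.5 reads per kb, chromosome 10, 36732271 to 36734271). Mbd3, a gene of the NuRD complex, was lower (44.3 reads per kb).

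Adhesion, junction and EMT genes had GFI1B-only intervals in 20 of 28 (71.4%) and cell cycle genes in 10 of 17 (58.8%). The shares with such intervals alone and no GFI1 entry were 21.4% and 29.4%, against 43.3% of all rows. Among the cell cycle genes Aurka, a mitotic kinase gene (88.1 reads per kb), Ccnb1, the cyclin B1 gene (81.1), Cdkn2a, a cell cycle inhibitor gene (74.4), E2f8 (45.3) and Cdk1 (37.1) had no GFI1 entry. The polarity gene Pard3 was the strongest of the adhesion genes at 223 reads per kb, from 179 reads in 801 bp that lay 338646 bp from GFI1, although the gene was in the GFI1 list through 2 other intervals. Cardiac and smooth muscle genes gave 9 of 19 (47.4%), below the 67.8% of all rows. The share with such intervals alone and no GFI1 entry was 26.3%, also below that of all rows. Ttn, the titin gene (81 reads, 108 reads per kb), Myl4 (63.8), the T-box gene Tbx5 (2 intervals, 61.9), Gata6 (3 intervals, 59.7) and Mef2c (54.9) had GFI1B-only intervals and no GFI1 entry. The 9901 bp interval of Tbx20, another cardiac T-box gene, overlapped GFI1 and is not a member. Outside the lists, the pluripotency gene Pou5f1 had a single GFI1B-only interval with 61 reads (76.2 reads per kb, chromosome 17, 35639591 to 35640391).

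The comparison lists went different ways. Ribosomal protein genes had a GFI1B-only interval in 10 of 21 listed genes (47.6%, against 67.8% of all rows), and all 10, led by Rpl32 (117 reads per kb), Rpl13a (78.7) and Rps24 (70.9), were absent from the GFI1 list, a share near the 43.3% of all rows. Long neuronal and synaptic genes had one in 13 of 20 (65.0%), but 2 of the 20, Grin2b and Ctnna2, had GFI1B-only intervals alone and no GFI1 entry, as 43.3% of all rows had.

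By biotype GFI1B-only intervals resembled the list. Protein-coding genes made up 83.1% of the 3614 rows with a GFI1B-only interval, 81.6% of all GFI1B rows and 78.3% of rows without one. Large intergenic RNA genes had one in 223 of 344 rows (64.8%), pseudogenes in 130 of 216 (60.2%), antisense genes in 60 of 101 (59.4%), small nuclear RNA genes in 49 of 84 (58.3%), microRNA genes in 43 of 74 (58.1%) and small nucleolar RNA genes in 35 of 56 (62.5%). These shares were below the 69.1% of protein-coding genes, while ribosomal RNA genes, with 12 of 16 rows, were above it. Neither these shares nor the next ones were adjusted for the number of intervals per row. When only genes without a GFI1 entry are counted the order changed: 42.2% of protein-coding rows, 47.1% of large intergenic RNA rows, 50.9% of pseudogene rows and 51.8% of small nucleolar RNA rows. Each of the names U6, U5, SNORA17 and 7SK stands on several rows, whose sequences were not compared here. The labels and headers do not say how reads matching several copies were counted. The long noncoding RNA genes Neat1 (43.3 reads per kb) and Gas5 (55.0) had GFI1B-only intervals alone. The Gas5 interval (chromosome 1, 162965934 to 162966934, 55 reads) was listed for its small nucleolar RNAs SNORD24, SNORD44 and SNORD75 too.

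MicroRNA genes with a standard symbol differed mainly at the top. Mir802 stood at 377 reads per kb, from 283 reads in 751 bp on chromosome 16 (93375167 to 93375917), 432588 bp from GFI1. The others ranged from 30.3 to 68.2. Mir718 (58 reads, 68.2 reads per kb), Mir31 (119 reads, 66.1), Mir145, known from smooth muscle (119 reads, 56.6), Mir335 (67 reads, 55.8) and Mirlet7a-1, of the let-7 family of developmental timing (61 reads, 48.8), were among them. Mir29a (44 reads, 58.6 reads per kb) and Mir29b-1 (47 reads, 30.3), whose 3′ arms carry the shared seed AGCACCA shown above and repress collagen and other matrix genes, had separate intervals on chromosome 6, at 30996255 to 30997005 and 31014805 to 31016355. Mir221, whose product represses the KIT receptor in human endothelial cells, had 30 reads (35.3 reads per kb, chromosome X, 18695855 to 18696705). Mir296 had 2 intervals (74 reads, 30.8). The Mir31 interval belonged to a run of 6 GFI1B-only intervals with no GFI1 interval, which reached from Ifna4 over 267 kb of chromosome 4.

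Gene families lay on either side of the 67.8% of all rows. Zinc finger genes (symbols in Zfp, Zscan or Zbtb) had a GFI1B-only interval in 67 of 92 rows (72.8%), led by Zfp341 at 356 reads per kb. Solute carriers gave 45 of 66 (68.2%), potassium channels 16 of 23 (69.6%), and collagens 10 of 13 (76.9%), with Col3a1 at 259 reads per kb. Histone genes gave 7 of 10, with Hist1h2bh at 270 reads per kb. All 7 lacked a GFI1 entry, which is 70.0% of only 10 rows, against 43.3% of all rows. Olfactory receptor genes gave 16 of 27 (59.3%) and genes with symbols in Rab, which include Rab3gap1, 9 of 18. In small families the counts were 7 of 9 for protocadherins, 7 of 9 for serpins, 6 of 7 for cytochrome P450 genes, 4 of 5 for forkhead factors, 3 of 6 for KLF and for Sox factors, 2 of 4 for GATA factors and 3 of 8 for vomeronasal receptors. None of the 3 Hox genes in the GFI1B list had a GFI1B-only interval.

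Chromosomes hardly differed. The GFI1B-only share of GFI1B intervals ran from 53.0% on chromosome 19 (106 of 200) to 63.8% on chromosome 8 (201 of 315), around 57.7% in all, and was 59.7% on chromosome X (194 of 325). Both GFI1B intervals on chromosome Y were GFI1B-only, where the GFI1 list had 1 interval.

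**Figure D5:**
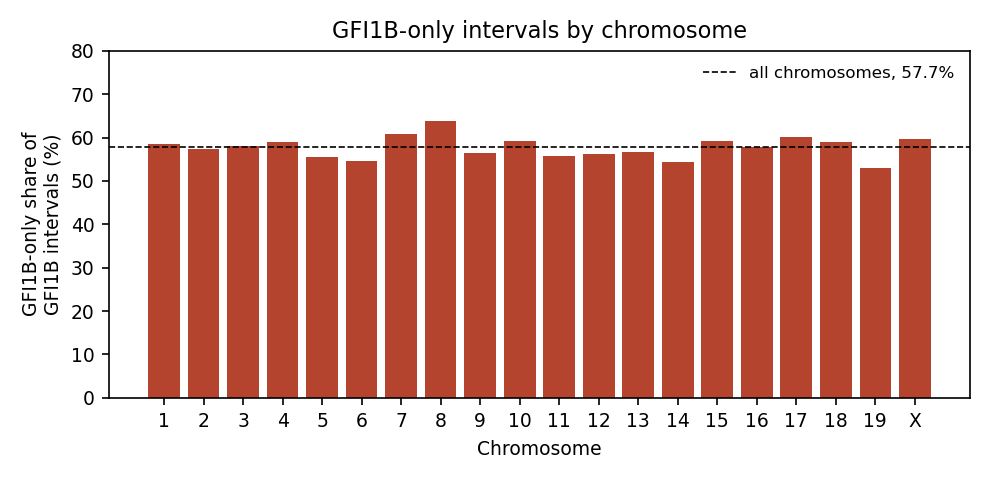
GFI1B-only intervals as a percent of all GFI1B intervals on each chromosome (bars from 0), with the share over all chromosomes as a dashed line at 57.7%; chromosome Y, with 2 intervals, is left out. Bars run from 53.0% to 63.8%.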

How the data were processed

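Each fusion was represented by 1 deposited gene list, assigned by its worksheet name; the DAM control had no values used here. Read numbers, deposited per gene row, were handled as a score because the file headers leave unsaid whether control reads were taken off them. Reads per kb of interval are the signal the authors deposited; they were recomputed within 0.005 from the read number and the summed width in all 5238 and 5327 rows. The GFI1B list was made with BayesPeak and SS at a threshold of 0.05, with lanes merged and control reads subtracted before SS, per the file headers. Coordinates are mm9 (per the submitters' processing notes). No source used here names an aligner. Library depth is unknown, so no interval or floor that needs it is given.

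Distances were computed edge to edge between distinct intervals (Python 3.11.15, pandas 2.3.3) and tested on simulated intervals. Symbols were matched to RefSeq (GRCm38.p6) for names, promoters and microRNA sequences, with no coordinates carried between builds. The members and 14 gene lists were chosen with earlier results of these data known. Named genes were the 10 strongest, those with most members, up to 4 per list, the extremes of width and distance, up to 3 per family or biotype and a set given by name. Further genes, named after their values were seen, were list members absent from the GFI1 list or in both lists, microRNA genes, and genes with 4 or more intervals. With 1 pooled sample per fusion no test was run. Some genes and gene families are not reported here.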

Additional observations from a re-analysis of the deposited data

How the results depend on the processing

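No paired analysis was possible because each fusion was 1 pooled sample, and for the same reason no replicate could be left out. Of 46 recomputed values, 31 stayed within 1.5 times the count or within the 95% binomial interval of the share or median, which covers counting error only, and no direction was involved. The number of GFI1B-only intervals, 4385, was 2414 with a limit of 50000 bp and 2162 when GFI1B genes below the median reads per kb were left out, and stayed between 2969 and 5848 under the other alternatives. With GFI1 genes below their median left out, median width was 1301 bp and reads per kb 48.8. With those GFI1B genes left out, they were 1151 bp and 75.7. With intervals of 1000 bp or wider they were 1551 bp and 48.5. The last 2 alternatives remove narrow or weak intervals by construction. The protein-coding share was 85.0% without intervals listed under 2 or more genes. The share of genes also in the GFI1 list, 35.9%, left its interval under 6 of 9 alternatives: 39.0% for any interval without overlap, 38.6% beyond 1000 bp, 33.1% beyond 10000 bp, 18.7% beyond 50000 bp, 46.5% without the GFI1 genes below the median and 37.7% for wider intervals. Using subtraction to give more intervals reads of their own, chosen after seeing the data, gave a median of 51.2 reads per kb. Signal over background could not be assessed, since depth is unknown.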
